A study of Mus musculus with 6 samples.

Results

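Small nucleolar ribonucleoproteins (snoRNPs) are nucleolar particles in which a guide RNA directs proteins to a base of another RNA, mostly ribosomal RNA. Box C/D particles carry the methyltransferase fibrillarin with NOP56, NOP58 and SNU13 and methylate riboses, whereas box H/ACA particles carry dyskerin with GAR1, NHP2 and NOP10 and turn uridine into pseudouridine. New box C/D particles are put together with the help of ZNHIT6 (BCD1), ZNHIT3 (HIT1), NUFIP1 and the R2TP chaperone, whose ATPases are RUVBL1 and RUVBL2. Dividing progenitors and growing neurons of the embryonic brain make ribosomes at a high rate, which places these particles among their housekeeping machinery.

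The 10 genes followed here were Znhit6, Znhit3, Nufip1, Fbl, Nop56, Nop58, Nhp2, Nop10, Ruvbl1 and Ruvbl2, taken by symbol from the 24848 genes listed. Znhit6 was chosen by its lower expected counts in the E4f1 KO brains, so its KO and WT values are given as a description with no test; the other 9 were added for what their proteins do. Although they were grouped under the name of box C/D snoRNPs, Nhp2 and Nop10 encode proteins of box H/ACA particles, and by role the 10 genes are 3 assembly factors, 3 box C/D core proteins, 2 H/ACA core proteins and 2 AAA ATPases. Their transcripts were measured by RNA-seq of brains from 3 E4f1 KO and 3 wild-type (WT) mouse embryos at E14.5. The study asks of E4F1, a transcription factor with zinc fingers, how it links pyruvate metabolism to the Elongator complex and translation in the developing brain. The labels give 1 animal number per brain and no strain, sex, litter, allele or Cre driver, so it is not known here whether all cells of a KO brain lacked the gene. In whole tissue, fewer cells of a type and less RNA per cell cannot be told apart.

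Between 42113465 and 74064707 expected counts were deposited per library, and 15848 genes, all 10 snoRNP genes among them, were expressed highly enough to be tested. E4f1 itself stood at 7.12, 7.01 and 6.92 CPM in KO 1 to KO 3, against 20.7, 21.6 and 21.5 CPM in WT 1 to WT 3. CPM is the count brought to a common library total after TMM scaling, and a gene was called changed at an edgeR adjusted p below 0.05. By this rule 0.511% of all tested genes were higher and 0.492% lower in KO. The libraries also differed in tissue and cell markers. The summed CPM of 3 midbrain markers was 0.266 to 1.61 in KO and 3.07 to 69.9 in WT libraries, with none of the 3 markers at 0 in any library; 0 were called by edgeR, and all 3 were lower at an unadjusted p below 0.05 and by DESeq2. Neuronal markers summed to 4393 to 5065 CPM in KO and to 5849 to 6774 CPM in WT (5 of 6 negative fold changes, none at 0). Of these, 0 were called by edgeR, 4 were lower at an unadjusted p below 0.05, 3 by DESeq2 and 2 by limma on either TPM scale. Over all tested genes, 9.31% were lower at an unadjusted p below 0.05 and 4.17% by DESeq2, and 49.9% had positive fold changes.

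Znhit6 encodes a zinc finger protein of the HIT family that binds NUFIP1 and RUVBL proteins during box C/D assembly. The gene lies on chromosome 3, 145576201 to 145605245 (GRCm38.p6). It was represented by 199, 203 and 139 expected counts in KO 1 to KO 3, against 1451, 943 and 1299 in WT 1 to WT 3. Scaled for depth, these were 2.78, 3.56 and 2.72 CPM in KO brains and 19.5, 22.9 and 19.5 CPM in WT brains. The groups lay far apart, and the highest KO brain, KO 2, stood well below the lowest WT brain. The KO level was 0.146 of the WT level, or -2.77 on the log2 scale with an SE of 0.15 over 3 brains per group; fold changes below are on the same scale, each ± its SE. The transcript of the deleted gene, E4f1, was at 0.330 of its WT level. RSEM shares the counts of Znhit6 between 2 RefSeq transcripts, and their weighted mean length was 2382, 2477 and 2508 bases in KO and 2477, 2607 and 2554 bases in WT libraries, so the ranges overlapped.

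**Figure D1:**
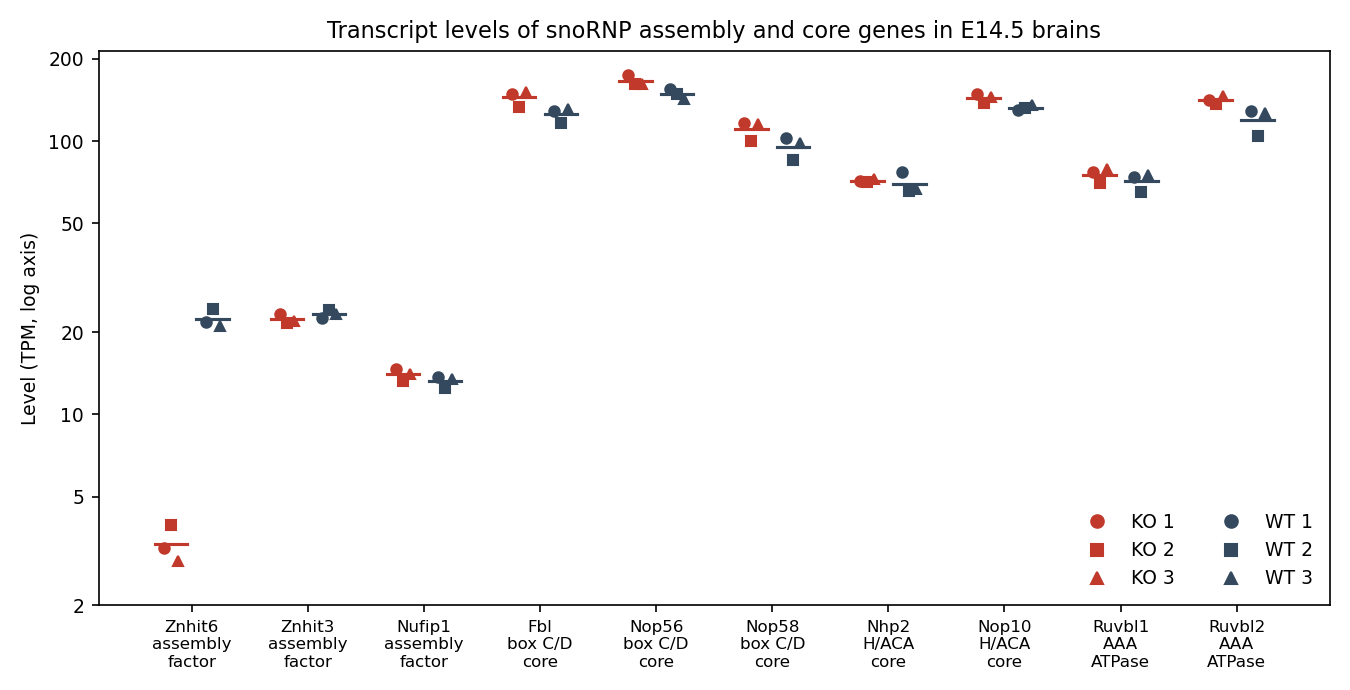
Levels of the 10 genes in TPM (counts scaled to transcript length and library total, log axis) in each KO (red, left of each pair) and WT (dark, right) library, with bars at the group means. Znhit6 lies between 2.90 and 3.92 TPM in KO and between 21.0 and 24.3 TPM in WT libraries, while the other genes keep close to their WT levels.

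The protein-coding genes on either side of Znhit6 that were tested, Col24a1 at a distance of 24.2 kb and Cyr61 at 41.7 kb, did not pass the test. Col24a1, a collagen chain, had 1.37, 1.26 and 9.64 CPM in KO and 1.36, 5.96 and 2.09 CPM in WT brains (log2 fold change 0.39 ± 0.95, edgeR adjusted p = 0.844). Cyr61, a secreted matrix protein, had 14.1 ± 2.45 CPM in KO and 10.2 ± 2.60 CPM in WT brains (SD, n = 3 each; 0.46 ± 0.23, edgeR adjusted p = 0.320). Groups overlapped in both neighbours.

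The genes most like Znhit6 across the 6 libraries are given as a description. Likeness was the root mean square difference between log2 CPM profiles, each centred on its own mean, over the 12799 genes that averaged 1 CPM or more. A gene near to Znhit6 by this measure has to be lower in KO, since the measure uses the values that chose Znhit6. Among the 5 nearest were Neurl4, a centriolar protein, at 0.098 log2 units, Dlat, the E2 subunit of pyruvate dehydrogenase, at 0.119, Senp8, the protease that processes NEDD8, at 0.187, and Dph5, a diphthamide synthesis enzyme, at 0.199. In Dlat, KO brains had 5.43, 7.57 and 6.86 CPM and WT brains 45.3, 47.3 and 43.7 CPM. In Neurl4, the values were 26.5, 36.1 and 22.7 CPM in KO brains and 188, 204 and 192 CPM in WT brains. KO 2 was the highest of the KO libraries in Znhit6, Neurl4, Dlat and Senp8, but not in Dph5.

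E4F1 was first described as a factor that binds a site with the letters TGACG in an adenoviral promoter. The promoters of 8 of the 10 genes were in the RefSeq table of GRCm38.p6, and the 250 bases before each start were searched on both strands for TGACG and for TGACGT, which contains it. Of all 32851 promoters listed, 17.8% held TGACG and 6.47% held TGACGT. Among the 8 genes, Nufip1, Nop58 and Ruvbl2 held both and Znhit6, Nop10, Nop56, Ruvbl1 and Nhp2 neither. The Znhit6 sequence is shown because that gene was lower in KO, and those of Nufip1 and Nop58 because they hold the letters and were not called. All are on the plus strand, 5′ to 3′, cut before the annotated gene, with TGACG in capitals, at chr3:145575958-145576200, chr14:76110641-76110890 and chr1:59684756-59684960.
Znhit6: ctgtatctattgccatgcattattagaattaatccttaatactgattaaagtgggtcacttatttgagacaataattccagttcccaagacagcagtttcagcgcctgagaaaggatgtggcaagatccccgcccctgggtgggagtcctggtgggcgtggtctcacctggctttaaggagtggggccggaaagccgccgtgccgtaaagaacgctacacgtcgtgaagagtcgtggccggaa
Nufip1: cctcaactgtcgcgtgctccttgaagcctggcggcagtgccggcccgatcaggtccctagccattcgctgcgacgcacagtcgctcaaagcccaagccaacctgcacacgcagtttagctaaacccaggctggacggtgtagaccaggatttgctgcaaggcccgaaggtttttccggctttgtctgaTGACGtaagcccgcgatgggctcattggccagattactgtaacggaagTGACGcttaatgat
Nop58: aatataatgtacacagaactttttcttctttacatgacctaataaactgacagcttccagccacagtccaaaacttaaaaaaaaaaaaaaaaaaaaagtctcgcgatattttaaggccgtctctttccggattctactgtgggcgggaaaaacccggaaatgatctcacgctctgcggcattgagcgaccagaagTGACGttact
The absence of these letters before Znhit6 says only that they are not in this window.

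The other assembly factors kept levels near those of WT. Znhit3 (chromosome 11, 84910950 to 84916366), whose protein stabilises NUFIP1 in human cells, had 7.32, 6.81 and 7.01 CPM in KO brains and 7.05, 7.47 and 7.22 CPM in WT brains. The ranges overlapped, with a log2 fold change of -0.04 ± 0.11 and an edgeR adjusted p of 0.865 that does not show equality: the 95% confidence interval of its fold ran between 0.811 and 1.17. Under scaling by library totals the value was 0.03. Znhit3 shares 277 exon bases with Myo19 on the opposite strand, and since the strand setting of the counting is not given, reads there cannot be assigned with certainty. Nufip1 (chromosome 14, 76110891 to 76137379), the platform that joins SNU13 to the R2TP complex, had 21.9, 20.1 and 21.7 CPM in KO brains and 20.4, 18.6 and 20.1 CPM in WT brains. Here too the groups overlapped (log2 fold change 0.11 ± 0.08, edgeR adjusted p = 0.494, fold interval 0.940 to 1.23). With 1 library left out in turn, Znhit3 had values between -0.067 (without KO 1) and -0.015 (without KO 2) and Nufip1 between 0.067 (without WT 2) and 0.147 (without KO 2).

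Znhit6 was a minor transcript beside Znhit3 in KO brains and about as abundant as Znhit3 in WT brains. Per length, the TPM of Znhit6 divided by that of Znhit3 was 0.138, 0.182 and 0.132 in KO libraries and 0.962, 1.01 and 0.905 in WT libraries. The 3 assembly factors together made 39.6 ± 1.4 TPM in KO and 58.8 ± 1.7 TPM in WT (SD, n = 3 each). This sum includes Znhit6, chosen by its lower counts, which alone averaged 3.35 TPM in KO and 22.34 TPM in WT. Znhit3 and Nufip1 kept near their WT levels, so the lower sum does not describe the assembly factors as a class. In WT brains Znhit6 was the ninth of the 10 genes by TPM, at a level that overlapped with Znhit3, and in KO brains it was the lowest, below Nufip1 in every library.

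The 3 core proteins of box C/D particles had somewhat higher values in KO, none of which passed the test. Fbl (chromosome 7, 28168893 to 28179269) encodes fibrillarin, the methyltransferase, and had 55.8, 50.4 and 58.2 CPM in KO brains and 47.9, 43.4 and 49.0 CPM in WT brains. All KO brains lay above all WT brains, with a log2 fold change of 0.23 ± 0.08 and an edgeR adjusted p of 0.216. Nop56 (chromosome 2, 130274367 to 130279313), a scaffold protein that contacts the guide RNA, had 118, 110 and 113 CPM in KO brains and 104, 99.4 and 96.0 CPM in WT brains. Its groups did not overlap either (0.19 ± 0.06, edgeR adjusted p = 0.185). Nop58 (chromosome 1, 59684961 to 59711510), the paralogous scaffold, had 81.3, 70.8 and 83.2 CPM in KO brains and 71.4, 59.3 and 68.7 CPM in WT brains. KO 2 lay among the WT values, so the groups of Nop58 overlapped (0.24 ± 0.10, edgeR adjusted p = 0.257).

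The order of the core genes was the same in every library: per length, Nop56 stood above Fbl and Fbl above Nop58 in all 6. The TPM of Fbl was 0.871 ± 0.055 of that of Nop56 in KO and 0.842 ± 0.069 in WT libraries, and that of Nop58 was 0.666 ± 0.046 of Nop56 in KO and 0.640 ± 0.060 in WT libraries (SD, n = 3 each). These differences between groups were smaller than the SD within them. Summed over the 3 genes, the level was 439, 396 and 429 TPM in KO and 386, 350 and 372 TPM in WT libraries, so every KO sum was above every WT sum.

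**Figure D2:**
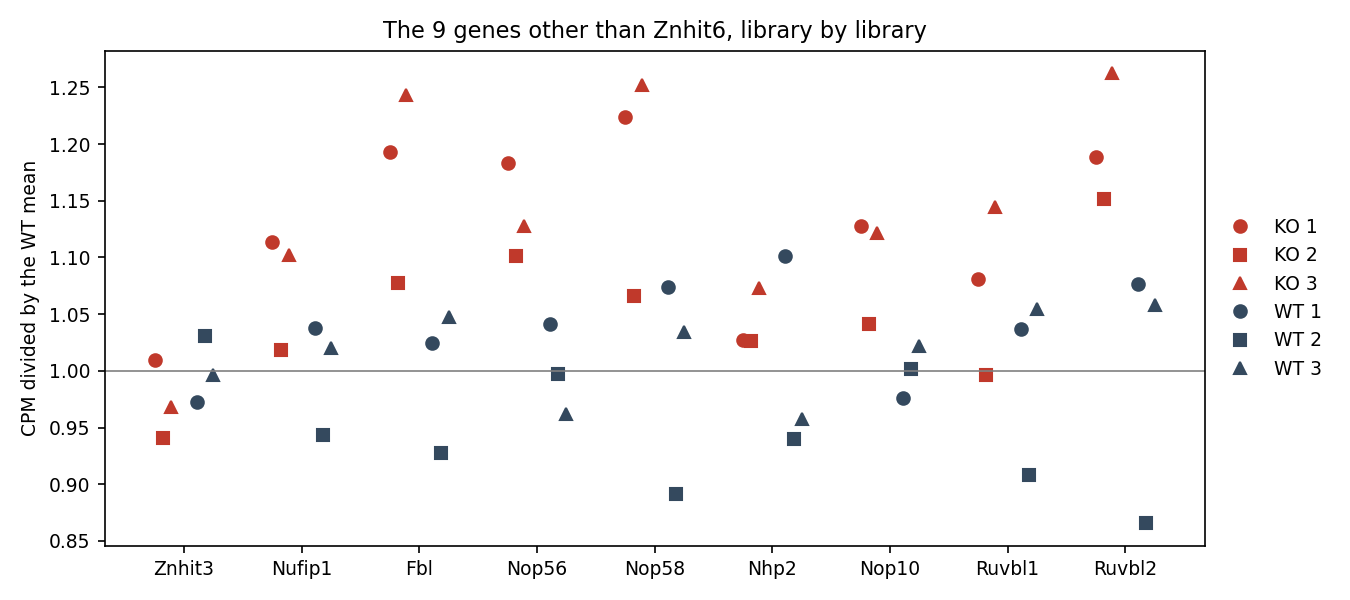
CPM of each gene other than Znhit6 divided by its WT mean (line at 1) in each KO (red) and WT (dark) library; marker shapes give the replicate number. WT 2 (dark square) is the lowest of the 6 libraries in 6 of the 9 genes, and the KO values of Fbl, Nop56, Nop10 and Ruvbl2 lie above all their WT values.

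Neither gene of the H/ACA proteins was called. Nop10 (chromosome 2, 112261926 to 112262898), a small protein that holds dyskerin in place, had 30.9, 28.5 and 30.7 CPM in KO brains and 26.7, 27.4 and 27.97 CPM in WT brains. These ranges did not overlap, and the log2 fold change was 0.13 ± 0.07 (edgeR adjusted p = 0.334). Nhp2 (chromosome 11, 51619773 to 51623718), which binds the guide RNA, had 22.4, 22.3 and 23.4 CPM in KO brains and 24.0, 20.5 and 20.8 CPM in WT brains. WT 1 was the highest of all libraries in Nhp2, and the groups overlapped (0.06 ± 0.09, edgeR adjusted p = 0.734, fold interval 0.899 to 1.21). Its value was 0.017 without WT 2 and 0.135 without WT 1, the ends of the range with 1 library left out. Per length, Nhp2 was at 0.480, 0.517 and 0.501 of Nop10 in KO and at 0.594, 0.495 and 0.492 in WT libraries.

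The ATPases RUVBL1 and RUVBL2 form a ring that serves snoRNP assembly, kinases of the PIKK family, RNA polymerase II and chromatin remodellers. Ruvbl1 (chromosome 6, 88465409 to 88497566) had 44.4, 40.9 and 47.0 CPM in KO brains and 42.6, 37.3 and 43.3 CPM in WT brains. The groups overlapped, and the log2 fold change was 0.10 ± 0.09 (edgeR adjusted p = 0.553). With 1 library left out it lay between 0.038 (without WT 2) and 0.154 (without KO 2). Ruvbl2 (chromosome 7, 45421896 to 45436171) had 82.4, 79.8 and 87.5 CPM in KO brains and 74.6, 60.0 and 73.4 CPM in WT brains. All KO brains lay above all WT brains, but the change of 0.26 ± 0.10 did not pass the test (edgeR adjusted p = 0.223). Without WT 2, its lowest library, the value was 0.17. Ruvbl2 shares 310 exon bases with Gys1 and 138 with Lhb on the opposite strand, Nhp2 shares 44 with Rmnd5b and Nop56 shares 5 with Idh3b. On the same strand, Nop56 shares 100, 86, 72 and 70 exon bases with snoRNA genes and Nop58 shares 84 with another. The TPM of Ruvbl1 divided by that of Ruvbl2 was 0.541, 0.515 and 0.539 in KO and 0.573, 0.624 and 0.593 in WT libraries, which did not overlap.

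**Figure D3:**
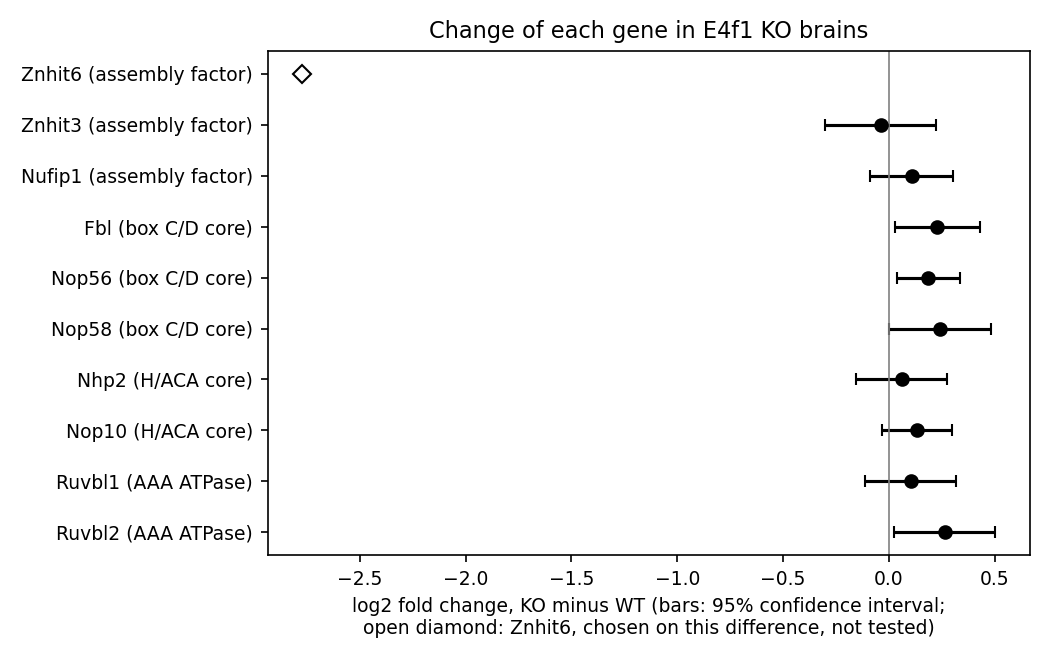
Log2 fold change of each gene, KO minus WT (n = 3 per group); bars on the 9 filled points are 95% confidence intervals from the edgeR fit, and Znhit6, which was chosen on this difference, is an open diamond with no interval. Znhit6 lies at -2.77, and the other 9 lie between -0.04 and 0.26 with intervals that reach -0.30 at the low and 0.50 at the high end.

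Of the 9 genes other than Znhit6, edgeR called 0, beside the background of 0.511% higher and 0.492% lower among all tested genes. By unadjusted p below 0.05, Fbl, Nop56 and Ruvbl2 were higher and 0 were lower (3 of 9), where 10.3% of all tested genes were higher and 9.31% lower by this rule. DESeq2, limma-voom and limma on log2(TPM + 1) and log2(TPM + 0.1) also called 0 of the 9. The 9 fold changes had a median of 0.13, against -0.0008 over all tested genes, and 8 were positive, where 49.9% of all tested genes were. In 4 of the 9 (Fbl, Nop56, Nop10 and Ruvbl2) every KO value was above every WT value, beside 14.6% of all tested genes. The confidence intervals of the 9 folds reached no lower than 0.811 and no higher than 1.42, so none of them held a change of the size of Znhit6.

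Markers of dividing cells were not called either. All 8 cycling markers, such as Top2a and Mcm2, had positive fold changes, with none called by edgeR, DESeq2 or limma and none at an unadjusted p below 0.05. They summed to 1234, 991 and 1312 CPM in KO and to 1104, 582 and 1015 CPM in WT libraries, and no marker was at 0 in any library. Of 8 microglia markers, 8 had positive fold changes, with 7 higher at an unadjusted p below 0.05, 1 called by edgeR and 6 by DESeq2. The shares of all genes higher by these 3 rules were 10.3%, 0.511% and 4.95%, and 49.9% of all tested genes had positive fold changes. Microglia markers summed to 100.5 to 134.7 CPM in KO and 52.5 to 83.85 CPM in WT libraries. Erythroid markers (6 of 7 positive, 0 called by edgeR, 2 higher by DESeq2 and 2 higher at an unadjusted p below 0.05) summed to 684.5 to 964 CPM in KO and 300.5 to 796.1 CPM in WT. Radial glia markers (3 of 6 positive, 0 called by edgeR) summed to 1229 to 1408 CPM in KO and 1094 to 1632 CPM in WT. Of the radial glia markers, 1 was lower at an unadjusted p below 0.05, 1 by DESeq2 and 1 by limma on either TPM scale. The shares of all genes lower were 9.31% at an unadjusted p below 0.05 and 4.17% by DESeq2. No marker of these lists was at 0 in any library. The part of these cells in the values of the 9 genes was not tested.

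The wider machinery around the 10 genes was read from 10 lists of 143 tested genes, of which 1 rose and 1 fell. The median log2 fold change over them was 0.01 (0.07 under scaling by library totals, which moved the median of all genes to 0.06). The edgeR background beside this 1 rise and 1 fall was 0.511% higher and 0.492% lower. By unadjusted p below 0.05, 19 genes were higher and 17 lower, where 10.3% of all tested genes were higher and 9.31% lower. DESeq2 called 9 higher and 7 lower, where its background was 4.95% higher and 4.17% lower.

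Both calls were factors of the large ribosomal subunit, among 23 tested in a list that was chosen with earlier results of these data known. Nsun5, a methyltransferase of a cytosine of the large ribosomal RNA, fell to 1.29, 1.35 and 1.96 CPM in KO brains, against 13.7, 13.8 and 14.1 CPM in WT brains (log2 fold change -3.18 ± 0.19, edgeR adjusted p = 0.00197). Its call held without any single library (edgeR adjusted p between 0.00287 and 0.0244). Gnl3, the nucleolar GTPase nucleostemin of progenitor cells, rose to 44.8, 37.7 and 44.2 CPM in KO brains, against 24.7, 22.2 and 24.3 CPM in WT brains (0.83 ± 0.09, edgeR adjusted p = 0.0184). Groups were far apart in both genes. The call of Gnl3 ended without KO 1, KO 3, WT 1, WT 2 or WT 3 (edgeR adjusted p = 0.139, 0.0962, 0.0674, 0.0609 and 0.0935) and held without KO 2 (0.0283). With a midbrain score (En1, En2 and Pax5 averaged as log2 CPM) as a covariate, and in WT 1, WT 2, KO 1 and KO 2 alone, edgeR called 0 of all genes. Nsun5 then had -3.17 and -3.38 (edgeR adjusted p = 0.220 and 0.0638) and Gnl3 0.73 and 0.82 (0.981 and 0.310). The score was -3.05, -1.31 and -1.97 in KO 1 to KO 3 and 4.12, 3.18 and -0.19 in WT 1 to WT 3. It separated the groups without overlap, so the covariate fit cannot tell midbrain content and genotype apart.

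Among close partners of the 10 genes no call was made by edgeR. Snu13, the fourth box C/D core protein, had 71.0, 66.9 and 71.7 CPM in KO brains and 61.2, 61.4 and 61.4 CPM in WT brains, without overlap (log2 fold change 0.19 ± 0.06, edgeR adjusted p = 0.166). Rrp9, the U3-specific protein, had 0.01 ± 0.07, and Fbll1, a fibrillarin relative, had -0.54 ± 0.26. This list of 3 held 1 higher gene at an unadjusted p below 0.05, and DESeq2 called 0. The shares of all genes higher by these rules were 10.3% and 4.95%. Among the other 4 H/ACA genes, Naf1, an assembly factor that is replaced by GAR1, had 23.4, 21.3 and 24.2 CPM in KO brains and 17.1, 16.9 and 18.2 CPM in WT brains, without overlap. It had the smallest p of the 4 (0.40 ± 0.08, edgeR adjusted p = 0.0908) and was called by DESeq2 (adjusted p = 0.00353), as the 1 gene at an unadjusted p below 0.05. Dkc1, which encodes dyskerin, had 0.13 ± 0.16 and Gar1 0.10 ± 0.11.

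The HIT zinc finger that Znhit6 and Znhit3 share occurs in 4 further genes tested. Znhit1, of a chromatin remodeller that exchanges H2A.Z, had 25.7, 27.6 and 25.4 CPM in KO brains and 31.1, 35.2 and 30.3 CPM in WT brains, and Ino80b, of the INO80 remodeller, had 15.5, 15.7 and 16.2 CPM in KO brains and 12.2, 11.6 and 13.3 CPM in WT brains. Their log2 fold changes of -0.30 ± 0.09 and 0.35 ± 0.09 did not pass edgeR (adjusted p = 0.151 and 0.134) but were called by DESeq2 (0.0355 and 0.0193). They were the 2 genes of the list at an unadjusted p below 0.05, where 10.3% of all tested genes were higher and 9.31% lower. The DESeq2 background was 4.95% higher and 4.17% lower. Znhit2, a partner of R2TP in U5 snRNP assembly, had -0.19 ± 0.10 (edgeR adjusted p = 0.348). In the family, Znhit6, which was chosen by its lower counts and not tested, was at 0.146 of its WT level. The other genes of the family, which were tested, were between 0.814 and 1.28 of theirs.

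Of 11 tested cochaperones of R2TP and the prefoldin-like complex, 6 had positive and 5 negative fold changes, and edgeR called 0. At an unadjusted p below 0.05, 1 was higher and 1 lower, where 10.3% of all tested genes were higher and 9.31% lower. DESeq2 called 1 higher, where its background was 4.95%. Hsp90ab1, the chaperone that R2TP serves, had 2496, 2375 and 2570 CPM in KO brains and 2110, 1865 and 2032 CPM in WT brains (0.31 ± 0.08, edgeR adjusted p = 0.134). Pih1d1, the R2TP subunit that recruits clients, had 21.8, 21.7 and 21.1 CPM in KO brains and 26.7, 24.7 and 24.7 CPM in WT brains (-0.24 ± 0.07, edgeR adjusted p = 0.159). Groups did not overlap in either gene, where 14.6% of all tested genes had every KO value above every WT value. Pdrg1, a prefoldin-like subunit, had -0.21 ± 0.11.

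Genes of transport and maturation, of the small subunit processome and of RNA polymerase I (9, 35 and 14 tested) also held 0 edgeR calls, with medians of -0.04, 0.01 and 0.01 (0.02, 0.08 and 0.08 under scaling by library totals). At an unadjusted p below 0.05 they held 1, 3 and 0 higher and 3, 2 and 2 lower genes. By this rule 10.3% of all tested genes were higher and 9.31% lower. DESeq2 called 0, 2 and 0 higher and 0, 1 and 0 lower, where its background was 4.95% higher and 4.17% lower. Limma on either TPM scale called 1 higher gene of the processome. Rcl1, a processing factor bound by U3 particles, had the largest change of the processome list, with 20.2, 19.6 and 21.3 CPM in KO brains and 15.0, 14.9 and 15.1 CPM in WT brains (0.44 ± 0.08, edgeR adjusted p = 0.0630). Utp18 (0.28 ± 0.07) and Bysl (-0.28 ± 0.08) followed. Coil, the scaffold of Cajal bodies, had -0.19 ± 0.07, and Tcof1, a nucleolar factor of ribosomal transcription and modification, 0.20 ± 0.08; Ncbp2, a subunit of the cap-binding complex, had -0.21 ± 0.08. Of the RNA polymerase I list, Znrd1, a polymerase subunit, had 0.29 ± 0.12, Taf1c, of its promoter selectivity factor, -0.21 ± 0.08, and Cd3eap, another polymerase subunit, -0.19 ± 0.08.

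No gene of the chromatin complexes that contain RUVBL proteins was called by edgeR. Of 26 tested, 7 were lower and 1 higher at an unadjusted p below 0.05, where 9.31% of all tested genes were lower and 10.3% higher. DESeq2 called 4 lower, where it called 4.17% of all genes, and limma on either TPM scale called 2 lower. Yeats4, a histone acetylation reader, had 54.9, 58.1 and 53.3 CPM in KO brains and 95.3, 74.8 and 77.8 CPM in WT brains (-0.58 ± 0.10, edgeR adjusted p = 0.0669). Epc2 and Ino80c had -0.46 ± 0.09 and -0.45 ± 0.08 (edgeR adjusted p = 0.0694 and 0.0631). Over the list the median was -0.03, or 0.04 when scaled by library totals, with 16 negative fold changes.

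**Figure D4:**
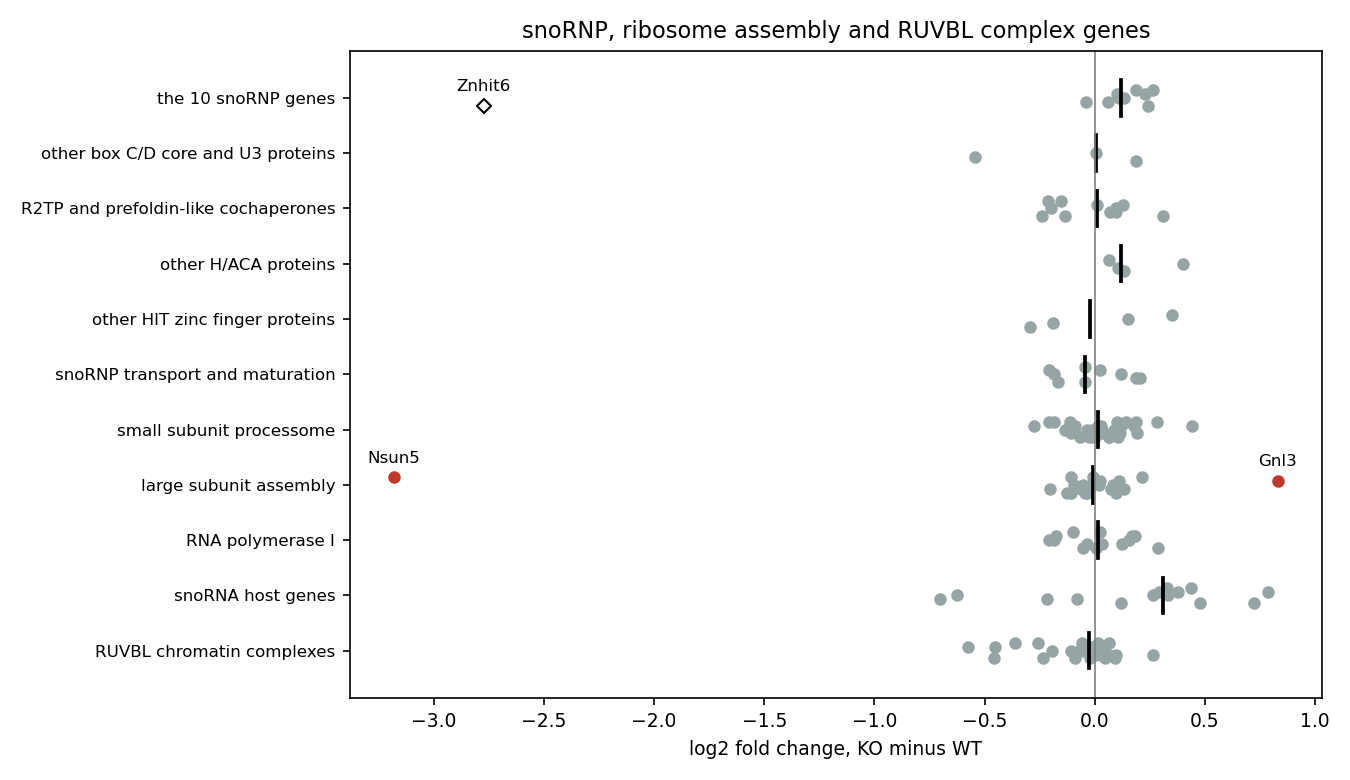
Log2 fold change (KO minus WT) of each tested gene in the 10 snoRNP genes and in 10 lists of related machinery; red points were called by edgeR, grey points were not, the open diamond is Znhit6, which was not tested, and black bars are list medians. Znhit6 and Nsun5 lie at -2.77 and -3.18 and Gnl3 at 0.83, with most other genes near 0.

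Host genes release box C/D and H/ACA guide RNAs from their introns, as Nop56 and Nop58 themselves do. Of 14 tested host genes edgeR called 0, beside 0.511% higher and 0.492% lower of all tested genes. Fold changes were positive in 10, where 49.9% of all tested genes had positive ones. The median was 0.31, or 0.38 under scaling by library totals. At an unadjusted p below 0.05, 8 were higher, where 10.3% of all tested genes were. DESeq2 called 3 higher, where its background was 4.95%. Snhg15 had 2.66, 2.35 and 2.41 CPM in KO brains and 1.64, 1.46 and 1.203 CPM in WT brains (0.79 ± 0.20, edgeR adjusted p = 0.127). Snhg18 had 0.72 ± 0.24 (edgeR adjusted p = 0.192). Snhg11 had the opposite sign, -0.70 ± 0.55, with 401, 739 and 152 CPM in KO brains and 640, 957 and 507 CPM in WT brains, which overlapped. The guide RNAs themselves were hardly sampled by these mRNA libraries: the 74 Snord rows held 27, 6 and 22 counts in KO and 20, 5 and 12 counts in WT libraries, so their levels were not analysed here. Ribosomal precursor RNA (Rn45s) made up 0.520%, 0.635% and 2.09% of the counts in KO and 1.45%, 2.48% and 5.23% in WT libraries, with overlapping groups.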

How the data were processed

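Messenger RNA of 3 E4f1 KO and 3 WT brains was sequenced. Per the labels' protocols, brains were flash frozen, RNA was extracted with Trizol and libraries were made with a KAPA stranded kit. STAR (2.5.3a), RSEM (1.2.28), FastQC and Trimmomatic are listed in the submitters' processing notes, with mm10 and GRCm38; settings, strand included, were not given in the sources used here. Per the file headers, the deposited values are RSEM expected counts, TPM and, in another column, the mean transcript length in bases. All 60 expected counts of the 10 genes were whole within 0.005. TPM deposited by the authors is scaled to length and keeps no depth.

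Expected counts were rounded and tested with edgeR (4.0.16): filterByExpr, TMM, robust quasi-likelihood F test, two-sided, Benjamini-Hochberg adjustment over all 15848 tested genes. SE follows from the F statistic, and confidence intervals are at 95%. Replicates are separate animals by number. Pairs within a group differed by far more than sampling noise (chi-square per degree of freedom 43.5 to 168). Alternatives were DESeq2 (1.42.0), limma (3.58.1) with voom or log2(TPM + 1) and log2(TPM + 0.1), other scalings and filters, a replicate block, a subset of libraries, a midbrain covariate and each library left out. The subset was WT 1, WT 2, KO 1 and KO 2, with animal numbers 601, 608, 605 and 607. WT 3 and KO 3 have the numbers 164 and 242, and whether they differ as a set was not tested.

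The 10 genes, the lists and the alternatives were chosen with earlier results of these data known; leaving out Rn45s was added after seeing the data. Of each list the called genes, otherwise up to 3 with the largest absolute change, were named, with the 5 genes nearest to Znhit6 (predicted models, pseudogenes and genes of chromosomes X and Y left out), 1 of which is not reported here. The guide RNA and Rn45s values and Gas5 were named outside this rule, after their values were seen. Of 146 genes listed, 144 were in the tables. Starts, ends and promoters are from RefSeq (GRCm38.p6), exon overlaps from GENCODE.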

Additional observations from a re-analysis of the deposited data

How the results depend on the processing

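Znhit6 kept its direction in all 20 alternatives, with log2 fold changes between -2.905 and -2.43, and in those that left out 1 library between -2.905 and -2.69. The lowest absolute value, -2.43, came from limma on log2(TPM + 1), a pseudocount that draws low levels together. Of 180 values for the other 9 genes, 178 kept their direction and none passed the test. Znhit3 turned to 0.027 under library totals and Ruvbl1 to -0.006 with the midbrain score as a covariate; the cause was not tested. That covariate and the fit of WT 1, WT 2, KO 1 and KO 2 alone called 0 of the 9 genes, 0 genes higher and 0 lower overall (753 and 1546 at an unadjusted p below 0.05), with Znhit6 at -2.60 and -2.74. The midbrain score separates all KO from all WT libraries, so the first fit cannot tell it apart from genotype. The second has fewer samples. Counts of all genes called moved more: DESeq2 gave 784 higher and 660 lower, limma on log2(TPM + 1) 125 and 122, log2(TPM + 0.1) 121 lower, and library totals 123 higher, against 81 and 78. Leaving out 1 library gave 12 to 40 higher and 24 to 42 lower. The replicate block gave 24 higher and 42 lower, with Znhit6 at -2.78. The shared replicate numbers do not pair the brains by label. Deviations of same-numbered libraries correlated at 0.121, 0.173 and 0.016, and 5 of 6 libraries correlated best with their own number, a hint from the data only. The lowest count behind a value of Znhit6 was 139 (KO 3).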

Other observations

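Gas5, a host gene of box C/D guide RNAs that was chosen after its values were seen, split the KO brains. It had 8.63, 5.57 and 42.2 CPM in KO 1 to KO 3 and 27.6, 28.5 and 30.7 CPM in WT 1 to WT 3, so 2 KO libraries lay below and 1 above all WT libraries. Its log2 fold change of -0.63 ± 0.72 did not pass the test (edgeR adjusted p = 0.658). Rn45s was likewise higher in KO 3 than in KO 1 and KO 2.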
